A study of Mus musculus with 14 samples.

Results

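Delayed-decay ends are poly(A) sites, the positions at which mRNAs end, whose RNA stayed near its control level for the first 2 h after transcription was blocked and was much lower by 8 h. They were chosen on measured values. Reads were divided by the factor that the deposited file gives for each library, and an end was kept if it had at least 100 raw reads in the 2 controls together, a level of at least 0.85 times the control mean at both 1 and 2 h, and a level of at most 0.5 times the control mean at 8 h. Of 33590 annotated ends, 11254 had 100 control reads, and 944 of these met the rule. All 944 also passed the read filter of the authors' deposited table. The 944 ends lay in 842 loci, a locus being a run of ends on 1 strand with no gap over 2000 nt. No annotation of the file's build, mm9, was used here, so the ends are given by position and carry no gene names, and the 3T3 label was not checked against marker genes.

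When transcription stops, an mRNA that is degraded with a constant probability declines along a single exponential. In cells, decay usually starts with shortening of the poly(A) tail, followed by loss of the cap and digestion from either end, so an mRNA that needs time for the first steps, or that is still being exported or processed, can hold its level before it declines. Many genes make mRNAs with more than one 3' end, and the extra 3' untranslated sequence of the longer form can carry sites for microRNAs and RNA-binding proteins that change how long the mRNA lasts and how well it is translated. Sucrose gradients sort mRNAs by the number of ribosomes they carry.

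The study measured 3' ends in 3T3 cells, a mouse fibroblast line, by 2P-Seq, an assay that primes on the poly(A) tail of partly digested mRNA and reads inwards from the tail. The groups used were actinomycin D, a drug that blocks RNA synthesis, at 10 µg/ml for 1, 2, 4 or 8 h (1 library each), control cells (2 libraries), and 6 fractions of a single polysome gradient (1 library each), with fraction 1 taken as the lightest. The labels do not state that the 2 controls were separate cultures. Totals were 5843403 and 6433503 reads in the controls, 6111232, 5858649, 5048797 and 4045420 reads at 1, 2, 4 and 8 h, and between 1663346 and 11575417 reads in the gradient fractions. The delayed-decay ends held 6.31% and 6.45% of all reads in the controls and 6.84%, 6.68%, 4.81% and 2.8% after 1, 2, 4 and 8 h.

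The 1, 2 and 8 h libraries fixed the pattern, so the following levels describe what the rule selected and were not tested. In bulk RNA, fewer cells and less RNA per cell cannot be told apart. Relative to the control mean, the median delayed-decay end stood at 1.13 after 1 h (middle 50% of ends 1.01 to 1.28), 0.977 after 2 h (0.907 to 1.1), 0.662 after 4 h (0.546 to 0.783) and 0.352 after 8 h (0.258 to 0.427). The controls themselves stood at medians of 0.963 and 1.04. The 2 h median was thus within the spread of the controls, while the middle 50% at 4 h lay below both control medians. Other classes of ends with at least 100 control reads serve as neighbours: 5709 early-decay ends, which were also at or under 0.5 at 8 h but missed the 0.85 threshold at 1 or 2 h, and 3493 lasting ends, which held at 1 and 2 h and stayed above 0.5 at 8 h. Early-decay ends had medians of 0.768, 0.486, 0.273 and 0.135 at 1, 2, 4 and 8 h, and lasting ends 1.19, 1.16, 1.08 and 0.943. The remaining 1108 ends with 100 control reads missed a hold threshold and were above 0.5 at 8 h.

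**Figure D1:**
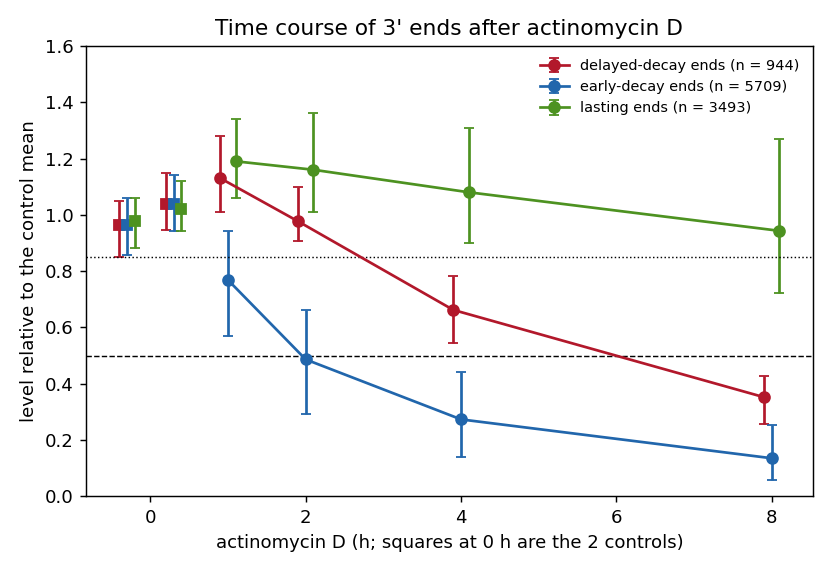
Level relative to the control mean (vertical axis) by hours of actinomycin D (horizontal axis) for 944 delayed-decay, 5709 early-decay and 3493 lasting ends; points are medians, bars the middle 50% of ends, squares the 2 controls, the dotted line the hold threshold of 0.85 and the dashed line the 8 h threshold of 0.5. Delayed-decay ends lie near the lasting ends at 1 h and between the other classes at 4 h, with a median of 0.662.

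The 4 h library was no part of the rule, although it shares its controls with the rule and is therefore also given as a description. At 4 h, 132 delayed-decay ends (14%) were still at or above 0.85, against 0.876% of early-decay and 80.7% of lasting ends. A further 174 (18.4%) were already at or under 0.5, against 82.1% of early-decay and 0.401% of lasting ends. Most of the class therefore lay between the thresholds at 4 h. A single exponential drawn through the control mean and the 8 h level passed under the 4 h value in 697 ends (73.8%, Wilson 95% interval 70.9 to 76.5%), against 28.9% of early-decay and 71.8% of lasting ends. The rule selected on both values that set this curve, and a low 8 h level lowers the curve. The interval takes ends as independent although all 4 h values come from 1 library, and the share was not tested. The 8 h level was below the 4 h level in 934 of 944 ends (98.9%), against 89.3% of early-decay and 67% of lasting ends.

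In log2 units per hour, the median change of delayed-decay ends was -0.177 between 1 and 2 h, -0.299 between 2 and 4 h and -0.236 between 4 and 8 h. Early-decay ends changed fastest in the first interval, by -0.701, and then by -0.359 and -0.229, while lasting ends changed by -0.023, -0.0584 and -0.0405. Between 4 and 8 h the median rate of delayed-decay ends was thus close to that of early-decay ends. The interval from 4 to 8 h was steeper than that from 2 to 4 h in 364 delayed-decay ends (38.6%), near the 38.8% of early-decay ends and below the 42.9% of all ends with 100 control reads. The median half-life in the authors' deposited table, whose unit the file headers do not state, was 3.23 for delayed-decay ends, 1.72 for early-decay ends and 6.23 for lasting ends. In the authors' deposited table the half-lives of delayed-decay ends ran between 1.9 and 5.05.

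**Figure D2:**
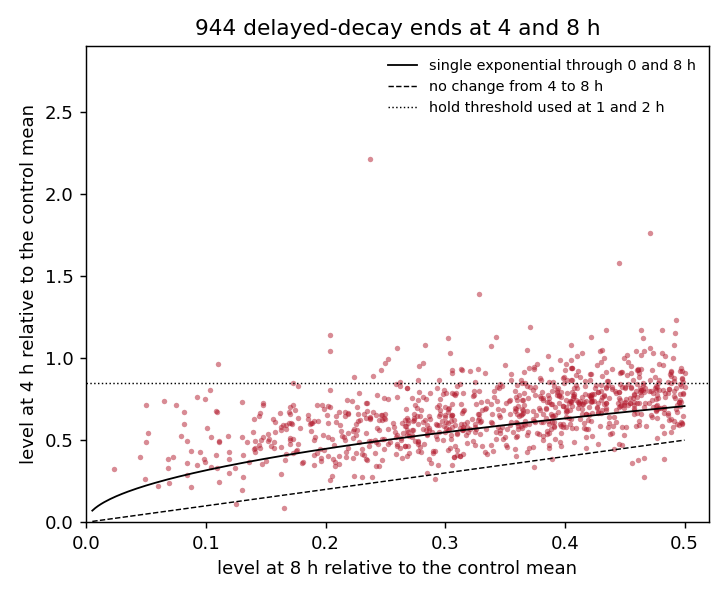
Level at 4 h (vertical axis) against level at 8 h (horizontal axis), both relative to the control mean, for the 944 delayed-decay ends, 1 point per end. The solid curve is a single exponential through the control mean and the 8 h level, and 697 ends lie above it; 132 lie at or above the dotted line at 0.85.

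These levels depend on how libraries are scaled, since a scaling has to assume how total poly(A) RNA changes after transcription stops. Scaled to library totals, the 944 ends had medians of 1.08, 1, 0.737 and 0.438 at 1, 2, 4 and 8 h, and the other ends with 100 control reads had 0.901, 0.746, 0.62 and 0.468. Scaled by TMM, which by construction centres the bulk of ends, the 944 had 1.14, 1.23, 1.07 and 0.782 and the other ends 0.944, 0.918, 0.899 and 0.836. The fall below 0.5 at 8 h is therefore a statement under the header factors. What the scaling cannot change is the order among ends of 1 library: under all 3 scalings the median delayed-decay end was 1.2, 1.34 and 1.19 times the median of the other ends at 1, 2 and 4 h and 0.935 to 0.936 times at 8 h. Applied afresh, the rule found 651 ends with library totals, 594 of them among the 944, and 522 ends with TMM factors, 172 of them among the 944.

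Levels above both controls are favoured by the rule's floor at 1 and 2 h and are given as a description. At 1 h, 510 ends (54%) stood above both controls, against 31.6% of all ends with 100 control reads, 8.53% of early-decay and 67.3% of lasting ends. At 2 h 228 ends (24.2%) did, against 21.2% of all ends with 100 control reads, and at both times 151 (16%), against 15.6%. The shares at 2 h and at both times were thus near those of all ends. The 1 h level was at least 1.5 times the control mean in 59 ends (6.25%), against 3.97% of the other ends with 100 control reads. It was at least 2 times the control mean in 4 (0.424%), against 0.175%. The 2 h level was above the 1 h level in 252 ends (26.7%), against 22.7% of the other ends. At the other extreme, 228 ends (24.2%) were under 0.25 times the control mean at 8 h and 27 (2.86%) were under 0.1. These shares were 41.2% and 21.8% for the other ends and 74.4% and 39.4% for early-decay ends, so such low levels were less common in the class.

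Reads per end set how firmly an end belongs to the class. Delayed-decay ends had a median of 386 control reads (middle 50% 193 to 820, range 100 to 23109), early-decay ends 322 and lasting ends 574. The class made up 8.32% of ends with 100 to under 200 control reads, 8.37% with 200 to under 500, 9.23% with 500 to under 1000 and 7.75% with 1000 or more, so its share did not shrink steadily with depth. The 95% counting interval lay wholly past the threshold in 674 ends at 1 h, 392 at 2 h and 574 at 8 h, and at all 3 in 187 ends (19.8%), whose median was 887 control reads. These intervals take each read as a molecule, which PCR copies are not, and so leave out all other error. Between the controls, the SD of the log2 ratio was 0.456 for delayed-decay ends and 0.465 for the other ends, and they differed by 1.5-fold or more in 194 delayed-decay ends (20.6%). When each control alone had to serve as the start level and both had to meet the rule, an alternative added after the data were seen, 442 ends remained of the 944.

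Ends beside a threshold were many. At 2 h, 214 delayed-decay ends lay within 0.05 above the hold threshold and 230 ends that met the other criteria lay within 0.05 below it. At 1 h these numbers were 58 inside and 48 outside, and at 8 h 162 inside and 193 outside. The 2 h threshold kept out more ends than it let in near its value, and without it 3055 ends met the rule. At that threshold, the end at 67478493 on chromosome 18 (plus strand) was inside with 0.8503 and the end at 69639324 on chromosome 17 (plus strand) outside with 0.8499, the next on each side having 0.8505 and 0.8494. At the 8 h threshold, the end at 75071473 on chromosome 9 (plus strand) was inside with 0.4997 and the end at 36092204 on chromosome 16 (plus strand) outside with 0.5003, followed by 0.4996 and 0.5004. At the 1 h threshold, the end at 6119400 on chromosome 19 (minus strand) was inside with 0.8509 and the end at 127078889 on chromosome 6 (minus strand) outside with 0.8484, followed by 0.8511 and 0.848. The levels of such neighbours differ by far less than the controls of single ends do.

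The most abundant ends show the pattern, under the header factors, at depths where counting error is small. The 8 h levels of the 10 most abundant ran between 0.237 and 0.618 with library totals and between 0.423 and 1.1 with TMM factors. For most of these ends the fall to 0.5 or less at 8 h thus depended on the scaling. The end at 58228274 on chromosome 13 (minus strand), the first of 4 ends of its locus, had 13062 and 10047 reads in the controls and 10264, 13995, 9150 and 3973 reads at 1, 2, 4 and 8 h. Relative to the control mean these were 1.17 and 0.835 in the controls and 0.925, 1.23, 0.861 and 0.417 in the time course. Its 2 h level was above both controls and its 1 h level between them, and it was still above 0.85 at 4 h. The end at 35971751 on chromosome 17 (minus strand) had 10956 and 10891 reads in the controls and 11877, 13543, 7460 and 4241 reads at 1, 2, 4 and 8 h, or 1.14, 1.26, 0.746 and 0.473 times the control mean. A second end of its locus, 881 nt further in the 3' direction at 35970870, was also among the 10 most abundant of the class, with 2856 and 4071 control reads and levels of 1.31, 0.856, 0.477 and 0.428. Both were above the controls at 1 h, but only the upstream end was above them at 2 h, and the downstream end was nearly level from 4 to 8 h.

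Of the other 7 ends among the 10 with most control reads, 5 were the single end of their locus. The end at 87832757 on chromosome 17 (minus strand) had 4922 and 4846 control reads and stood at 1.03, 1.05, 0.791 and 0.381 at 1, 2, 4 and 8 h. The end at 98868540 on chromosome 15 (plus strand), with 4607 and 5025 control reads, stood at 1.19, 0.925, 0.621 and 0.229. The first was flat for 2 h with controls at 1.04 and 0.957, and the second had already begun to decline by 2 h. The end at 69405373 on chromosome 11 (plus strand) stood at 0.937, 1.06, 0.664 and 0.483, but its controls, with 3238 and 6219 reads, were at 0.717 and 1.28, so that its first 2 h lay between them. The ends at 156699295 on chromosome 2 (plus strand) and 31505042 on chromosome 5 (minus strand) reached 0.398 and 0.498 at 8 h, and the second of them was still at 0.87 at 4 h, with a counting interval of 0.473 to 0.528 at 8 h that spans the threshold. The remaining pair were each the first of 2 ends. The end at 52631832 on chromosome 7 (minus strand), with 4206 and 4332 control reads, declined at every step, with 0.961, 0.903, 0.519 and 0.191. The end at 11220493 on chromosome 16 (minus strand), with 3614 and 3946 control reads, stood at 1.01, 1.19, 0.898 and 0.409.

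**Figure D3:**
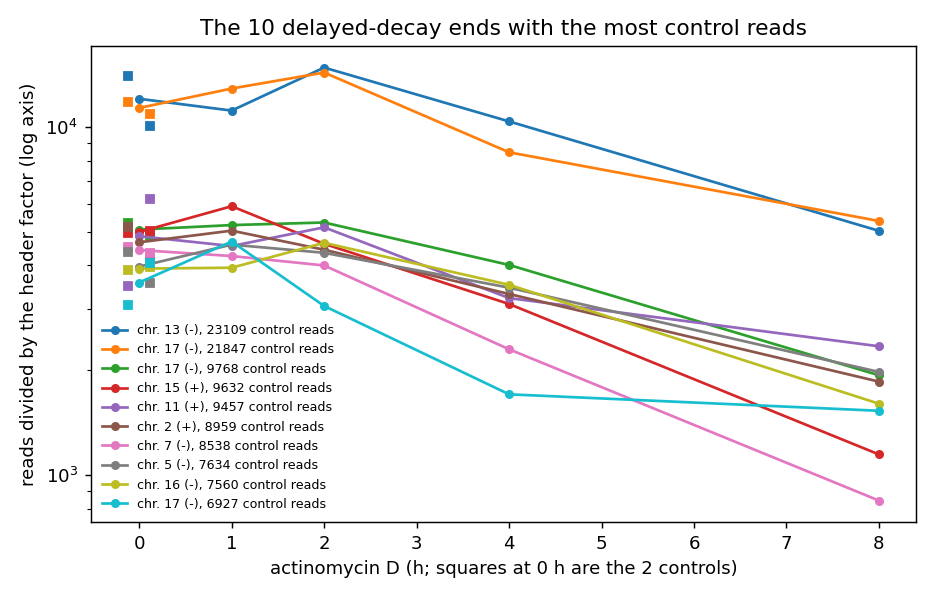
Reads divided by the header factor (vertical axis, log scale) by hours of actinomycin D (horizontal axis) for the 10 delayed-decay ends with the most control reads; lines start at the control mean and squares are the 2 controls. The end on chromosome 7 goes lowest, to 0.191 times its control mean, and the end on chromosome 11 has the widest gap between its controls.

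Among delayed-decay ends with at least 300 control reads, the lowest 8 h level was that of the end at 57154642 on chromosome 16 (plus strand), the last of 4 ends, with 287 and 352 control reads and 394, 308, 115 and 19 reads at 1, 2, 4 and 8 h. Its levels were 1.29, 0.987, 0.395 and 0.0728, with a counting interval of 0.0434 to 0.114 at 8 h. The end at 61747957 on chromosome 18 (plus strand), in the middle of a locus of 6 ends, had 1758 and 2240 control reads and 2208, 1722, 519 and 137 reads at 1, 2, 4 and 8 h. It stood at 1.16 and 0.882 and then at 0.285 and 0.0839, and was also among the 4 lowest at 4 h. Both ends were thus within 0.15 of the control mean at 2 h and under 0.1 at 8 h. The ends at 41577900 on chromosome 8 (minus strand) and 122894459 on chromosome 5 (plus strand) reached 0.0873 and 0.0948 at 8 h, each being the last of 3 ends of its locus. The lowest 4 h levels were 0.198 for the end at 86134868 on chromosome 8 (plus strand) and 0.246 for the end at 112766411 on chromosome 5 (minus strand). The first of these 2 had 134 reads at 2 h and 29 at 4 h, and the second 144 and 37. The end at 4080625 on chromosome 11 (plus strand) stood at 0.972 at 2 h and 0.338 at 4 h.

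The highest 4 h level belonged to an end that accumulated first. The end at 64143873 on chromosome 9 (plus strand), the single end of its locus, had 174 and 155 reads in the controls and 511, 636, 333 and 32 reads at 1, 2, 4 and 8 h. Its levels of 3.24, 3.93, 2.21 and 0.237 were the highest of the class at 1, 2 and 4 h. In the gradient it had 41 reads, of which 37 were in fraction 1, so its raw gradient reads were 0.125 per raw control read, against a class median of 3.55. The end at 72335229 on chromosome 6 (minus strand) stood at 1.4, 1.48, 1.23 and 0.493, and the end at 5772209 on chromosome 11 (minus strand) at 1.23, 1.5, 1.17 and 0.481. Both were the first of 2 ends that lay 24 and 25 nt apart. The end at 124568203 on chromosome 5 (plus strand), a single end, stood at 1.21, 1.33, 1.08 and 0.491. These 4 ends were still above the control mean at 4 h, although each was already lower than at 2 h.

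The gradient libraries took no part in the choice of ends and can be read independently of it. The median delayed-decay end had 4.05% of its scaled gradient reads in fraction 1, then 6.08%, 16.5%, 16.1%, 19% and 28.8% in fractions 2 to 6. The other ends with 100 control reads had 3.88%, 6.55%, 18%, 17.2%, 17.5% and 26.9%. The profile of delayed-decay ends was slightly deeper, with 53.7% of their reads in fractions 5 and 6 (middle 50% 39.1 to 64.7%) against 50.9% (35.8 to 62.4%), a shift far smaller than the spread among ends. Early-decay ends had 51.2% in these 2 fractions and lasting ends 49.1%. Among delayed-decay ends, 455 (48.2%) peaked in fraction 6, 211 (22.4%) in fraction 5, 125 in fraction 4, 142 in fraction 3, 5 in fraction 2 and 6 in fraction 1. Fractions 4, 3, 2 and 1 thus held the peaks of 13.2%, 15%, 0.53% and 0.636% of delayed-decay ends. Of the other ends, 48.2% peaked in fraction 6 and 16.3% in fraction 5, and 13.9%, 19.6%, 1.3% and 0.718% in fractions 4, 3, 2 and 1. For delayed-decay ends the share peaking in fraction 6 was the same, that in fraction 5 higher and that in fraction 3 lower. These differences were not tested over samples because the gradient was run once.

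**Figure D4:**
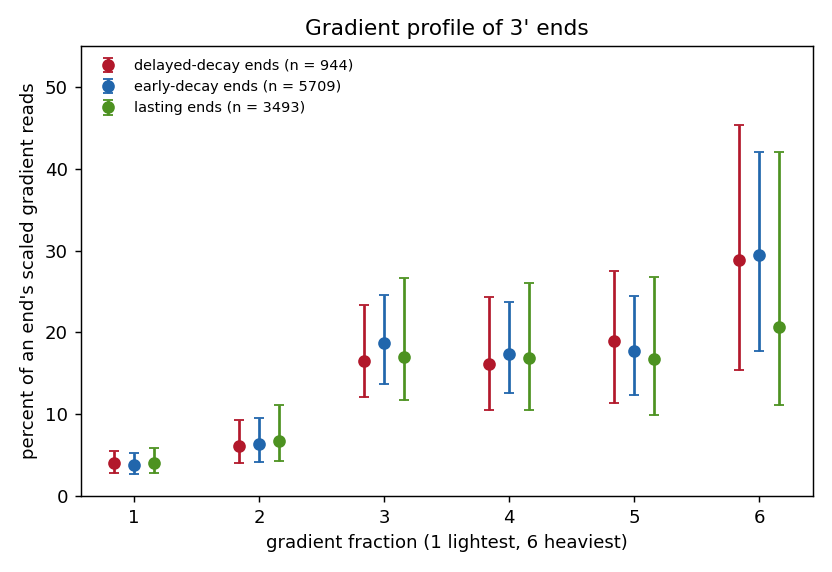
Percent of an end's scaled gradient reads (vertical axis) in fractions 1 to 6 (horizontal axis, lightest to heaviest) for 944 delayed-decay, 5709 early-decay and 3493 lasting ends; points are medians and bars the middle 50% of ends. The bars overlap in every fraction, and in fraction 6 the median is 28.8% for delayed-decay ends and 20.7% for lasting ends.

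Ribosomes per mRNA summarised the same profile. In the authors' deposited table the median was 6.66 for delayed-decay ends (middle 50% 5.52 to 7.74), 6.56 for early-decay ends, 6.2 for lasting ends and 6.47 for all other ends with 100 control reads. The medians lay within 0.5 ribosomes of each other, and the classes differed more in their tails. Under 4 ribosomes per mRNA in the authors' deposited table were 6.04% of delayed-decay, 2.56% of early-decay and 14.7% of lasting ends. At 8 or more in the authors' deposited table were 19.1% of delayed-decay, 13.7% of early-decay and 18.3% of lasting ends. The share of lightly loaded delayed-decay ends thus lay between those of early-decay and lasting ends, and the share of heavily loaded ones was near that of lasting ends. The remaining 1108 ends with 100 control reads had 11.2% under 4 and 21.5% at 8 or more in the authors' deposited table. These differences were not tested. The median in the authors' deposited table was 6.32 for delayed-decay ends and 6.36 for other ends with 100 to under 200 control reads. With 1000 control reads or more it was 7.23 for delayed-decay ends and 6.65 for other ends in the authors' deposited table. Depth therefore moved with this difference, and its part in it was not tested. Recomputed without fraction 6, the difference of 0.184 between the medians of delayed-decay and other ends was 0.087. The 180 delayed-decay ends with 8 or more ribosomes in the authors' deposited table and the 57 with fewer than 4 had median levels of 0.666 and 0.714 at 4 h. At 8 h these were 0.344 and 0.365. The rule bounds the 8 h levels of both sets but not the 4 h levels, and the differences were not tested.

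A slope of log2 counts on fraction number was fitted across all 18484 ends with at least 60 gradient reads (edgeR quasi-likelihood test, TMM scaling, adjusted p under 0.05). A positive slope means that an end grew, relative to the rest of the library, towards the heavy fractions. Of the 941 delayed-decay ends tested, 2 (0.213%) had a positive slope past the threshold and 20 (2.13%, Wilson interval 1.38 to 3.26%) a negative one, while over all ends tested the shares were 0.438% and 4.28%. Among the other ends with 100 control reads 0.438% and 3.84% were called. Both shares lay below those of all ends, and the difference was not tested. At an unadjusted p under 0.05, 73 delayed-decay ends (7.76%) had positive and 69 (7.33%) negative slopes, against 6.74% and 10.5% of all ends tested. The median slope was 0.08 log2 per fraction, with a median SE of 0.18, against 0.06 for the other ends, so most single ends could not be placed apart from the library average. The counts depended on the settings, and those of all ends moved with them. Under the header factors 477 delayed-decay ends (50.7%) had positive and 4 (0.425%) negative slopes, against 39.4% and 0.876% of all ends. With DESeq2 13 (1.38%) and 43 (4.57%) did, against 1.05% and 7.08%, and without fraction 1 50 (5.31%) and 54 (5.74%), against 3.95% and 7.69%. Leaving out fraction 2 gave 0 positive and 10 negative slopes, against 0.119% and 1.8% of all ends. Leaving out fraction 3 gave 1 and 15, against 0.119% and 3.64%. For fraction 5 the counts were 0 and 7, against 0.0433% and 1.17%, while omitting fraction 6 gave 10 and 13, against 0.784% and 2.21%. In each of these settings the share with a negative slope was lower among delayed-decay ends than among all ends, while the share with a positive slope was lower in some and higher in others. Each fraction has 1 library, so these p-values measure scatter around a straight line within 1 gradient.

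The ends with positive slopes were at 60601613 on chromosome 11 (minus strand), with 15, 19, 60, 204, 242 and 1026 reads in fractions 1 to 6, and at 153599047 on chromosome 2 (plus strand), with 10, 30, 67, 186, 730 and 525. Their slopes were 0.60 ± 0.17 (SE, edgeR adjusted p = 0.0227) and 0.64 ± 0.19 (edgeR adjusted p = 0.0301) log2 per fraction. Both calls were lost when fraction 2 was left out (edgeR adjusted p = 0.136 and 0.139) or fraction 5 (0.066 and 0.225), the first also without fraction 6 (0.234) and the second without fraction 3 (0.0791). In the time course the first stood at 1.13, 0.924, 0.765 and 0.414 and the second at 0.978, 0.866, 0.815 and 0.408, so both were well above 0.5 at 4 h. Against control 1 alone and control 2 alone, the 8 h level was 0.362 and 0.485 for the first and 0.589 and 0.312 for the second. The second thus met the 8 h threshold against only 1 of its controls.

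The strongest negative slopes belonged to ends with most of their reads in the light fractions. The end at 29136652 on chromosome 7 (plus strand), the first of 2 ends 1519 nt apart, had 335, 5, 3, 1, 0 and 0 reads in fractions 1 to 6 (slope -3.99 ± 0.32, edgeR adjusted p = 1.11e-11). Its time course was also unlike the class median, with 90 and 56 reads in the controls and 163, 129, 46 and 20 reads at 1, 2, 4 and 8 h, or 2.32, 1.79, 0.683 and 0.331 times the control mean. The end at 86397366 on chromosome 11 (minus strand), in the middle of 5 ends, had 202, 28, 19, 10, 5 and 14 reads in fractions 1 to 6 (slope -1.52 ± 0.20, edgeR adjusted p = 5.31e-07). It stood at 1.25, 1.02, 0.645 and 0.216, with its controls at 0.694 and 1.31. With the numbers in the fraction names as the covariate in place of fraction number, its slope missed the threshold (edgeR adjusted p = 0.0704). The end at 17976034 on chromosome 17 (plus strand) had 76, 99, 62, 35, 23 and 17 reads (slope -1.17 ± 0.17, edgeR adjusted p = 1.08e-05) and levels of 1.21, 1.25, 0.863 and 0.277. The end at 62708707 on chromosome 18 (plus strand) peaked in fraction 2, with 43, 260, 143, 30, 17 and 12 reads (slope -1.45 ± 0.23, edgeR adjusted p = 3.06e-05). It stood above both controls at 1, 2 and 4 h, with levels of 1.41, 1.65 and 1.58, and was at 0.445 at 8 h.

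Ends that peaked in fraction 1 were examined as a set after their values were seen. They made up 0.636% of delayed-decay ends and 0.718% of the other ends with 100 control reads, so such a peak was not particular to the class. There were 6, the ends at 64143873 on chromosome 9, 29136652 on chromosome 7, 86397366 on chromosome 11 and 17976034 on chromosome 17, already described, and those at 75212130 on chromosome 1 (minus strand) and 76426227 on chromosome 15 (plus strand). Their median levels were 1.23, 1.14, 0.719 and 0.254 at 1, 2, 4 and 8 h. The end on chromosome 1 had 49.5% of its scaled gradient reads in fraction 1 and stood at 1.06, 0.924, 0.756 and 0.272, and the end on chromosome 15 had 28.9% there and stood at 1.02, 0.957, 0.497 and 0.236. The 2 ends with over 90% in fraction 1, on chromosomes 7 and 9, were also the 2 with the highest 1 h level of the 6. The 3 delayed-decay ends with too few gradient reads for the slope fit were that on chromosome 9 and the ends at 33954870 on chromosome 16 (minus strand), with 7 gradient reads against 72 and 97 control reads, and 27893414 on chromosome 2 (plus strand), with 55 gradient reads.

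Locus structure was read from positions alone. Of the 944 ends, 244 (25.8%) were the single end of their locus, 229 (24.3%) the first of several in the direction of transcription, 223 (23.6%) in the middle and 248 (26.3%) the last. Early-decay ends were first in 17.3% and last in 31.7%, and lasting ends first in 22.4% and last in 25.1%. The share lying first in a locus had a Wilson interval of 21.6 to 27.1% for delayed-decay and 16.3 to 18.3% for early-decay ends. These intervals take ends as independent, which ends of 1 locus are not, and the difference was not tested. Single ends were about as common in all 3 classes, with 25.8%, 27.6% and 28%. In loci with several ends the delayed-decay end was the most abundant one in 61.1% of cases and held a median of 58% of the control reads of the locus, against 68.6% and 65.7% for early-decay and 58.6% and 55.1% for lasting ends. The nearest annotated end on the strand was at a median of 339 nt, and within 100 nt for 32.3% of delayed-decay and 33.9% of the other ends.

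Delayed-decay ends often lay beside each other. In 88 loci there were at least 2, together 190 of the 944, and 14 loci held 3. For 458 delayed-decay ends the locus held another end with 100 control reads, and the nearest such end was itself of the class in 159 (34.7%), against 6.06% when the starting end was not of the class. Where the nearest end was under 50 nt away this share was 55.4% (67 of 121), between 50 and 500 nt it was 31.9%, and at 500 nt or more 21.7%. The same neighbours met the 8 h threshold in 86%, 68.1% and 69.1% of cases and the hold thresholds in 66.9%, 57.8% and 46.7%. Of all 11254 ends with 100 control reads, 6653 met the 8 h threshold, and the 944 delayed-decay and 3493 lasting ends met the hold thresholds. For starting ends outside the class, shares by distance are not given here. The closest neighbours thus met the rule most often, although many of them did not. Ends of 1 locus come from the same libraries and may come from the same transcripts, so they are not independent.

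Loci with several delayed-decay ends illustrate this. At 59768330 and 59768351 on chromosome 1 (plus strand), 21 nt apart, the levels at 1, 2, 4 and 8 h were 1.18, 0.949, 0.489 and 0.228 for the first end and 1.28, 0.976, 0.462 and 0.266 for the second. Their gradient profiles also matched, with 52.3% and 51.3% of reads in fraction 6. On chromosome 18 (minus strand) 3 ends at 63822341, 63823761 and 63823825 met the rule, with levels of 1.51, 1.02 and 0.974 at 1 h and of 0.272, 0.152 and 0.306 at 8 h. On chromosome 11 (minus strand) the ends at 116711228 and 116711950 stood at 1.14, 0.855, 0.559 and 0.268 and at 1.13, 0.907, 0.607 and 0.339. The levels of the ends on chromosome 18 thus differed more among themselves than those on chromosomes 1 and 11. However, the end at 63822341 had only 51 and 131 control reads, at 0.59 and 1.41 times the control mean, so its levels are uncertain. The first of the ends on chromosome 11 had 6.93% of its gradient reads in fraction 1 and the second 2.5%.

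Other ends of the same loci mostly behaved differently by definition, since those meeting the rule are members. The 842 loci held 1398 other annotated ends, of which 463 had 100 control reads. Of these 463, 261 (56.4%) were early-decay ends, 164 (35.4%) lasting ends and 38 neither. This was close to the split of all 10310 other ends with 100 control reads, with 5709 early-decay ends, 3493 lasting ends and 1108 neither. Their median levels were 1.08, 0.787, 0.617 and 0.404 at 1, 2, 4 and 8 h. In the 299 loci with such an end, the log2 level of the delayed-decay end minus that of the other end was taken. Its medians were 0.10, 0.34, 0.15 and -0.27 at 1, 2, 4 and 8 h. The rule sets a floor at 2 h and a ceiling at 8 h for the delayed-decay end only. It therefore favours a positive difference at 2 h and a negative one at 8 h. The delayed-decay end was the more distal one in 133 of 299 (44.5%, Wilson interval 39 to 50.1%). The size of the 8 h difference was 0.46 log2 where the other end was under 100 nt away, 0.74 between 100 and 500 nt and 0.75 at 500 nt or more.

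The widest contrasts show ends of 1 locus with separate time courses. On chromosome 15 (plus strand) the delayed-decay end at 78859864, the first of 5, had 2698 and 3143 reads in the controls and 2877, 3774, 1744 and 579 reads at 1, 2, 4 and 8 h. The last end of the locus, 1063 nt downstream at 78860927, had 2934 and 3010 reads in the controls and 1930, 1185, 437 and 65 reads at these times. The 2 ends began with almost equal counts and differed at every later time, the shorter form standing at 1.03, 1.32, 0.654 and 0.242 and the longer at 0.68, 0.407, 0.161 and 0.0267. On chromosome 7 (minus strand) the end at 135841280 had 248 and 222 control reads and 67 reads at 8 h, and the first end of its locus, 420 nt upstream at 135841700, had 173 and 188 control reads and 2 reads at 8 h. Here the delayed-decay end was the longer form, with an 8 h level of 0.347 against 0.0135. On chromosome 11 (minus strand) the end at 115883606 stood at 0.447 at 8 h and the end 557 nt upstream at 115884163 at 0.0306, while another end at 115883583, 23 nt further downstream, had nearly the same course (1.08, 0.847, 0.675 and 0.435) as the first and missed the rule by its 2 h level alone.

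In the other 3 loci the contrast took each direction. On chromosome 8 (minus strand) the end at 88062161 stood at 1.39, 0.962, 0.486 and 0.242 and an end 629 nt downstream at 88061532 at 1.27, 0.663, 0.29 and 0.0276. On chromosome 10 (minus strand) the first end at 62044861 stood at 1.19, 0.871, 0.705 and 0.446 and the last, 1866 nt downstream at 62042995, at 1.09, 0.613, 0.293 and 0.0575. In both the ends were alike at 1 h and parted by 2 h. On chromosome 7 (minus strand) the delayed-decay end at 106988198 was the less stable one, with 1.23, 1.07, 0.538 and 0.152, against 0.99, 1.25, 1.23 and 1.32 for the end 686 nt downstream at 106987512. The third end of that locus, at 106987416, was a lasting end as well, with 0.974 at 8 h.

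**Figure D5:**
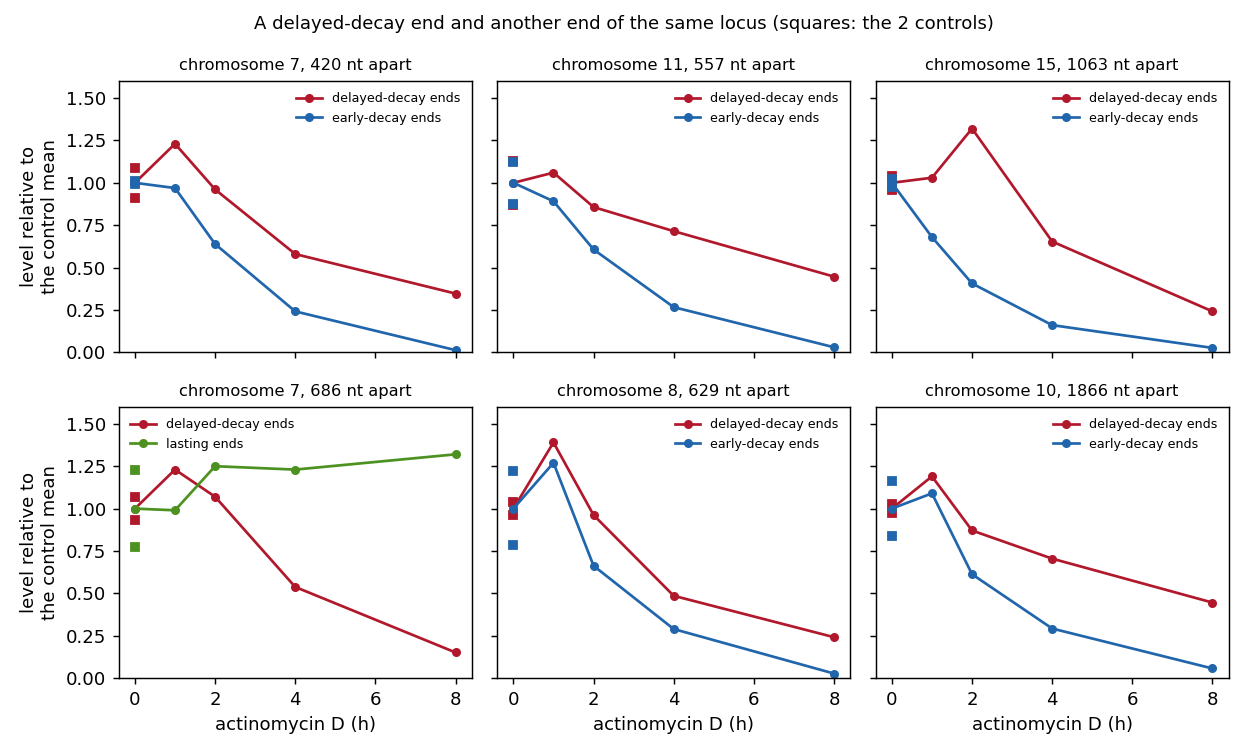
Level relative to the control mean (vertical axis) by hours of actinomycin D (horizontal axis) for the 6 loci with the largest 8 h difference between a delayed-decay end and another end with 300 or more control reads each; lines start at the control mean and squares are the 2 controls. In 5 loci the delayed-decay end stays above an early-decay end, and in 1 locus on chromosome 7 it reaches 0.152 beside a lasting end at 1.32.

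Whether the 2 forms of a locus also differed in the gradient was tested within libraries, by the difference in slope between the 2 most abundant ends of each locus. Of 374 pairs of a delayed-decay end and another end, 1 was called (edgeR quasi-likelihood test, adjusted p under 0.05 over all pairs), against 15 of all 4283 pairs (0.35%), and 54 (14.4%) had an unadjusted p under 0.05, against 13% of all pairs. The median difference, delayed-decay end minus other end, was -0.004 log2 per fraction (middle 50% -0.08 to 0.08), and its median size of 0.08 was the same over all pairs. The called pair lay on chromosome 3 (plus strand), where the delayed-decay end at 33968260 was 632 nt upstream of the end at 33968892 (difference -0.36 ± 0.05 SE, edgeR adjusted p = 0.0374). The delayed-decay end had 380, 1361, 1118, 693, 943 and 2613 reads in fractions 1 to 6 and the other end 21, 82, 119, 85, 148 and 460. The shorter form had 32.1% of its scaled reads in fraction 6 and the longer 46.2%. The call was lost on leaving out any of the 6 fractions, though 4 other pairs were called without fraction 1 and 3 without fraction 6. The share of all pairs called in these settings is not given here. Among the contrasting loci, the pair on chromosome 15 had a difference of -0.38 ± 0.07 SE that missed the threshold (edgeR adjusted p = 0.0747), the delayed-decay end having 33.3% and its longer partner 41.9% of reads in fraction 5.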

How the data were processed

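Raw counts of 2P-Seq reads at poly(A) sites, annotated by the authors from 3P-Seq in mm9, were taken as deposited, per the file headers. Reads were aligned with Bowtie, per the submitters' processing notes, with the version not given in the sources used here. Libraries made by 3P-Seq were not analysed here. Fraction columns, named by the numbers 0, 1, 2.5, 4.5, 7.5 and 12, were assumed to be fractions 1 to 6 in that order. Half-life and ribosomes per mRNA are values of another kind from the authors' deposited table; ribosomes per mRNA equalled the mean of the numbers in the column names weighted by scaled counts for 30164 of 30164 sites within 1e-06.

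Counts were divided by the header factors to choose and describe ends. Gradient slopes and slope differences of end pairs were fitted to the counts with edgeR 4.0.16 in R 4.3.3 (quasi-likelihood, robust, Benjamini-Hochberg over all ends or pairs tested, at least 60 gradient reads per end) after a test on simulated data. In edgeR, TMM scaling was used for the slopes, and library totals with a term per library for the pairs. The slope and pair calls were repeated with DESeq2 1.42.0. Intervals of shares are Wilson and those of count ratios exact, at 95%. P-values measure scatter around a straight line over the fractions of 1 gradient, which may be technical, and not a spread between replicates. Members, lists and named ends were chosen with earlier results of these data known. Named were the 10 ends with most control reads, and, with 300 control reads or more, the 4 lowest at 8 h and the 4 highest and lowest at 4 h. The rule added up to 4 called slopes in each direction by smallest p, the 6 loci with the largest 8 h difference between ends, the 4 deepest loci with several members, and ends beside each threshold.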

Additional observations from a re-analysis of the deposited data

How the results depend on the processing

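The number of delayed-decay ends, 944, went to 522 with TMM factors, 574 at 300 control reads, 483 and 1598 with hold thresholds of 0.95 and 0.75, 616 with an 8 h threshold of 0.4, 3055 without the 2 h library and 442 with both controls required. It was 842 without control 1, 610 of them among the 944, and 1106 without control 2, 674 of them among the 944. It stayed within 1.5 times with library totals (651), an 8 h threshold of 0.6 (1322) and without the 1 h library (1067). Their median 4 h level was 1.07 with TMM factors and 0.634 to 0.737 otherwise. Ends with positive slopes numbered 2, or 4 with RLE size factors, 477 with header factors, 13 with DESeq2, 13 with no count minimum, 10 with the numbers in the fraction names, and 0 to 50 with a fraction left out (50 without fraction 1, 0 without fractions 2 or 5, 10 without fraction 6). Ends with negative slopes numbered 20, or 4 with header factors, 43 with DESeq2, 33 with the numbers in the names, and 7 to 54 with a fraction left out (54 without fraction 1, 10, 7 and 13 without fractions 2, 5 and 6). Positive slopes were called in 0.425% with RLE size factors, 1.38% with no count minimum and 1.06% with the numbers in the names. The shares of all ends tested were 0.487%, 0.908% and 0.985%. With the numbers in the names, negative slopes were called in 3.51%, against 5.38% of all ends tested. Called pairs numbered 6 with DESeq2, 0 at 300 counts per end and 2 with loci linked at 5000 nt. With a fraction left out they numbered 0 to 4 (4 without fraction 1, 3 without fraction 6). For these pair settings the share of all pairs called is not given here. The difference in median ribosomes per mRNA, 0.184 against the other ends, was 0.087 to 0.215 with a fraction left out, lowest without fraction 6, 0.102 against early-decay ends and 0.458 against lasting ends, both comparisons added after the data were seen. Single ends of a locus made up 43.6% at 500 nt, 19.6% at 5000 nt and 33.4% when only ends with 10 control reads counted, against 44.1%, 21.2% and 36.1% of other ends. The cause of these shifts was not tested. No paired analysis was possible because each time point and each fraction has 1 library. Depth limits the thresholds at single ends.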

Other observations

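Delayed-decay ends lay on the plus strand in 55% of cases (Wilson interval 51.8 to 58.1%), against 50.6% of the other ends with 100 control reads. This interval takes ends as independent, which ends of 1 locus are not, and the difference was not tested. By chromosome, their share of ends with 100 control reads ran between 6.93% on chromosome 6 and 10.1% on chromosome 8. Raw gradient reads summed over the fractions, per raw control read and not scaled for library depth, had a median of 3.55 for delayed-decay ends, 3.13 for early-decay ends and 3.56 for lasting ends. Median 1 h levels were 1.17 for delayed-decay ends with 100 to under 200 control reads and 1.08 for those with 1000 or more.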
